A study of Mus musculus with 8 samples.

Results

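The 60 genes described here were those whose RNA was sharply lower in every oxPAPC library than in every control library of mouse T cells cultured towards the regulatory fate. Values are CPM, the count of a gene divided by the total count of its library and scaled to counts per 1000000. The genes were selected on these CPM values. A gene entered if it was annotated as protein-coding, averaged at least 3 CPM over the 8 libraries, and had a lowest control value at least 1.5 times its highest oxPAPC value. Protein-coding genes numbered 13133 of the 19330 listed, and 10176 of these reached the mean of 3 CPM. The thresholds were met by 67 genes, and 7 of them (Notch3, Il7r, Bcl2l11, Jag2, Ddit3, Nupr1 and Chac1) were left out by name, which leaves the 60. Because the control and oxPAPC values chose these genes, their differences are given as a description, with no test. Across the same 10176 genes every control value lay above every oxPAPC value in 4.91%, the ratio of 1.5 was reached in 0.658%, and the mirror conditions held for 13.8% and 1.76%.

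The cells came from the spleen of B6 mice: naive CD4+ T cells were polarized into regulatory T cells (Tregs) in culture for 3 days, either without oxPAPC (Control, 4 libraries) or with oxPAPC (4 libraries). OxPAPC is a mixture of oxidized products of the phospholipid palmitoyl-arachidonoyl-phosphatidylcholine, which is found in oxidized lipoproteins and inflamed tissue. Poly(A)-selected RNA was sequenced. Whether the replicates are separate mice or cultures is not in the labels. The p-values therefore reflect the spread among these libraries alone, which may be technical. The question put by the study's design was which genes change when Tregs form in the presence of oxPAPC.

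As background, several families recur among the 60 genes. Small GTPases control the shape, adhesion and movement of T cells, and are switched on by exchange factors and off by activating proteins. Regulatory T cells made in culture depend on TGF-beta, a secreted ligand that is stored in a latent form, signals through Smad proteins and is restrained by inhibitory Smads. Resting lymphocytes also hold RNAs for proteins that restrain growth signals and cell division, many of which fall when a T cell is activated.

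Library totals ran from 14017583 to 21619731 counts. A single RNA gene, Gm26917, took 8.59% to 29.1% of control counts and 9.35% to 19.4% of oxPAPC counts, so CPM of all other genes moves with it. On the CPM scale the median of the 10176 genes was shifted by 0.13 log2 towards oxPAPC, whereas the 60 genes had a median log2 ratio of -1.37. With edgeR's scaling, which corrects for such shifts, the median over the 16434 genes tested was -0.01 and that of the 60 genes -1.51. T cell markers summed to 2039 to 2614 CPM in the controls and 2061 to 2727 CPM with oxPAPC, and 1 of the 10 was lower by edgeR. The 8 Treg markers summed to 969 to 1814 CPM and 1337 to 2164 CPM, and none passed edgeR's test in either direction (3 higher and 0 lower at an unadjusted p under 0.05, and 2 higher by DESeq2). Foxp3, the transcription factor that defines Tregs, averaged 149 ± 45.2 CPM (SD, n = 4) without and 154 ± 63.1 CPM (SD, n = 4) with oxPAPC.

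Markers of some other cells moved with the treatment at low levels. B cell markers summed to 13.9 to 24.3 CPM in the controls and 27.0 to 34.3 CPM with oxPAPC. By edgeR 5 of 9 tested B cell markers were higher, beside 6.75% of all genes tested. Macrophage markers summed to 3.05 to 5.43 and 10.02 to 10.9 CPM, with 1 of 4 higher and Itgam, Fcgr1, Cd14, C1qa and C1qb not in the table. Dendritic cell markers summed to 14.1 to 23.7 and 27.5 to 33.0 CPM, with 1 of 4 tested higher. CD8 markers summed to 5.99 to 9.78 and 10.4 to 20.6 CPM, with 1 of 2 tested higher. No tested marker of NK cells, erythroid cells, fibroblasts or endothelium passed in either direction, and their summed ranges overlapped between the groups. Endothelial markers, for example, summed to 10.7 to 21.5 and 11.6 to 18.8 CPM. No neutrophil marker could be tested. Itga2b, the platelet marker in the table, was lower, at 4.14 to 6.47 against 2.43 to 3.39 CPM. The part of these cells in the values below was not tested. In bulk RNA, fewer cells of a type and less RNA per cell cannot be told apart.

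Summed over the 60 genes, the 4 controls held 1175, 1354, 1446 and 1408 CPM and the 4 oxPAPC libraries 494, 577, 590 and 540 CPM. No gene of the 60 fell below 7 counts in any library. The fold of the control mean over the oxPAPC mean ran from 1.79 for Arhgef39 to 8.12 for Nptxr, with a median of 2.59. It was at least 2 for 56 genes, at least 3 for 15, at least 4 for 6 and at least 5 for 3. By level, 40 averaged at least 10 CPM in the controls, 7 at least 50 CPM, and 31 averaged under 5 CPM with oxPAPC. All 60 passed edgeR's filter on low counts and all 60 were called lower, beside 6.52% of all genes tested; since the same contrast chose them, nothing is read from that count. The authors' deposited table lists log2 fold changes of -3.14 to -0.96 for them, with a median of -1.48.

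**Figure D1:**
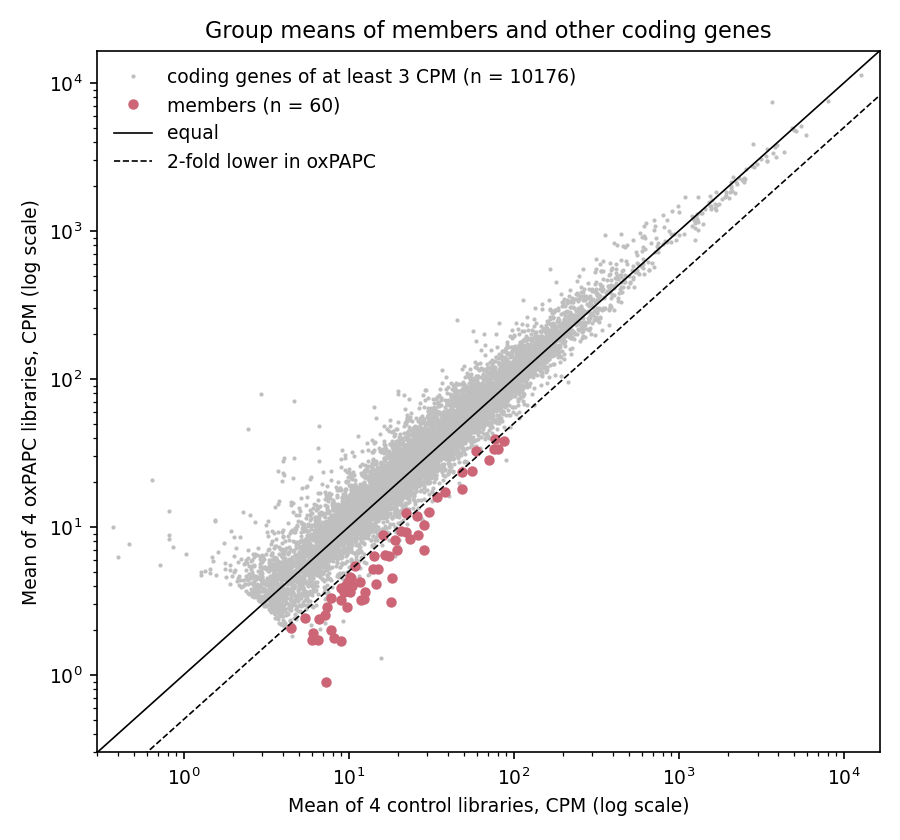
Mean CPM of the 4 control libraries (horizontal axis) against that of the 4 oxPAPC libraries (vertical axis), both on log scales, for the 10176 coding genes of at least 3 CPM in grey and the 60 members in red. The solid line marks equal means and the dashed line a 2-fold lower oxPAPC mean; 56 of the 60 lie at or beyond the dashed line, and genes left out by name stay grey.

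The libraries of a group did not contribute evenly. Control replicate 1 was the lowest control for 32 of the 60 genes, and control replicate 3 was the highest for 26. With oxPAPC, replicate 1 was the lowest for 35 genes and replicate 3 the highest for 27. The median coefficient of variation of the 60 genes was 17.8% in the controls and 18.3% with oxPAPC, beside 19.99% and 18.2% over the 10176 genes. The rule that chose the 60 favours a small spread within a group, so nothing is read from this comparison. Without control replicate 3 the log2 ratio went from -1.83 to -1.59 for Arhgap20, from -1.11 to -0.88 for Crebrf, from -1.44 to -1.10 for Zc3h6 and from -1.64 to -1.35 for Pigr.

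Arhgap20, a GTPase-activating protein that binds Rap1, lies at chr9:51765337-51853856 (GRCm38). It stood at 11.9, 12.7, 21.3 and 12.4 CPM in the controls and 2.71, 4.21, 5.01 and 4.52 CPM in the oxPAPC libraries. Control replicate 3 was well above the other controls. The means were 14.6 ± 4.49 and 4.11 ± 0.991 CPM (SD, n = 4 each), a 3.55-fold difference. The sequence before its start is shown because Arhgap20 is a leading gene of this group and its upstream region holds 7 copies of the GC box GGGCGG on either strand, in capitals. The window runs from 250 to 15 bases before the start site of the RefSeq promoter table, which lies inside the gene span given above. The stretch shown ends just before that span (chr9:51765101-51765336, plus strand, build GRCm38.p6).
Arhgap20: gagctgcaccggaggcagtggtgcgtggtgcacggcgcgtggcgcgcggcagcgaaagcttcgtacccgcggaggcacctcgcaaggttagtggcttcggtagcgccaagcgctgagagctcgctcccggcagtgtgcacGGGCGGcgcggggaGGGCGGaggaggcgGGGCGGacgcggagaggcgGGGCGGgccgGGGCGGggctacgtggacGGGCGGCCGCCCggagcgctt

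Mcf2l, an exchange factor for small GTPases, held 18.3, 31.2, 30.5 and 34.9 CPM without oxPAPC and 5.78, 8.08, 7.20 and 6.75 CPM with it. Control replicate 1 was the low library, at 2.26 times the highest oxPAPC library, where the rule asked for at least 1.5. The fold of the means was 4.13, the largest of the 6 small GTPase regulators. Rasgrp2, which activates Rap1 and thereby integrins, had 19.6, 27.4, 28.1 and 30.2 CPM against 7.99, 8.01, 9.97 and 9.26 CPM, a 2.98-fold difference. Rtkn2, a rhotekin, had 5.75 to 9.26 against 1.36 to 3.40 CPM (2.84-fold). The exchange factor Arhgef39 differed 1.79-fold and was the gene of the 60 with the smallest fold, with controls at 21.0 to 24.2 CPM and oxPAPC libraries at 11.9 to 13.3 CPM.

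Related regulators outside the 60 genes were tested with edgeR's quasi-likelihood test and Benjamini-Hochberg adjustment over all 16434 genes. Of these genes 6.52% were lower and 6.75% higher at an adjusted p under 0.05. With scaling by library size alone the shares were 2.79% and 7.02%. Of 44 other GTPase-activating proteins of the Arhgap20 kind 5 fell and none rose by edgeR (1 higher at an unadjusted p under 0.05, 0 by DESeq2, and 2 lower with scaling by library size alone), with a median log2 change of -0.20. Those with the smallest adjusted p were Arhgap19 (log2 change -0.81 ± 0.18 SE, adjusted p = 0.0087), Arhgap18 (-0.72 ± 0.16, 0.0101, and 0.089 with library-size scaling) and Syde2 (-1.33 ± 0.30, 0.010). The calls of the other 2, Arhgap23 and Srgap1, were lost without several single libraries (adjusted p up to 0.12 and 0.097). Of 47 other exchange factors of the Arhgef39 and Mcf2l kind 7 fell and 2 rose (2 fell and 2 rose with library-size scaling), with a median of -0.21. Arhgef10 fell (-0.74 ± 0.16, adjusted p = 0.0083, and 0.060 with library-size scaling) and Net1, an exchange factor for RhoA, rose (0.77 ± 0.17, adjusted p = 0.0085). Among 49 other Ras and Rap regulators and effectors 9 fell and 3 rose (6 and 3 with library-size scaling), with a median of -0.15. Rasgrp1, the main Ras exchange factor of T cells, fell (-0.87 ± 0.15, adjusted p = 0.0016), the small GTPase Rras fell (-1.25 ± 0.20, adjusted p = 0.0012), and Hras rose (0.84 ± 0.14, adjusted p = 0.0015).

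Soga1, at chr2:157015799-157079254, encodes a large coiled-coil protein related to the microtubule-binding MTCL family. Its values were 14.1, 24.2, 12.8 and 20.9 CPM in the controls and 1.93, 4.42, 3.65 and 2.45 CPM with oxPAPC. The controls spread widely, and the lowest of them was 2.89 times the highest oxPAPC library. The mean went from 18.0 ± 5.44 to 3.11 ± 1.13 CPM (SD, n = 4 each), 5.78-fold. The other 5 genes of the cytoskeleton and vesicles differed less. Psrc1, a protein of the mitotic spindle, had 66.7, 81.0, 79.3 and 95.4 CPM without and 29.2, 31.4, 40.2 and 33.8 CPM with oxPAPC (2.39-fold). Vamp1, a vesicle SNARE protein, had 71.8, 72.9, 87.0 and 77.2 against 35.2, 46.8, 35.5 and 40.1 CPM (1.96-fold). Tubb2b, a beta-tubulin, Dzip1, a protein of the ciliary base, and Sptb, a beta-spectrin, differed 2.55-fold, 2.20-fold and 2.00-fold. Reads of Tubb2b may be shared with its close copy Tubb2a, so its value is uncertain. Over all genes tested, edgeR called 6.52% lower and 6.75% higher (2.79% and 7.02% with library-size scaling). Of 39 other microtubule-associated proteins 3 fell (Map7, Clip2 and Map1lc3a) and Dclk1 rose (2 fell and 1 rose with library-size scaling, where Map1lc3a had an adjusted p of 0.14). The calls of Map1lc3a and Dclk1 were lost without several single libraries (adjusted p 0.061 to 0.085 and 0.056 to 0.10). Of 61 other actin and myosin genes 7 fell and 6 rose, which turned to 3 and 6 with library-size scaling. Daam1, a formin that promotes actin assembly, was among those that fell (log2 change -0.76 ± 0.15, adjusted p = 0.0047, and 0.065 with library-size scaling).

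**Figure D2:**
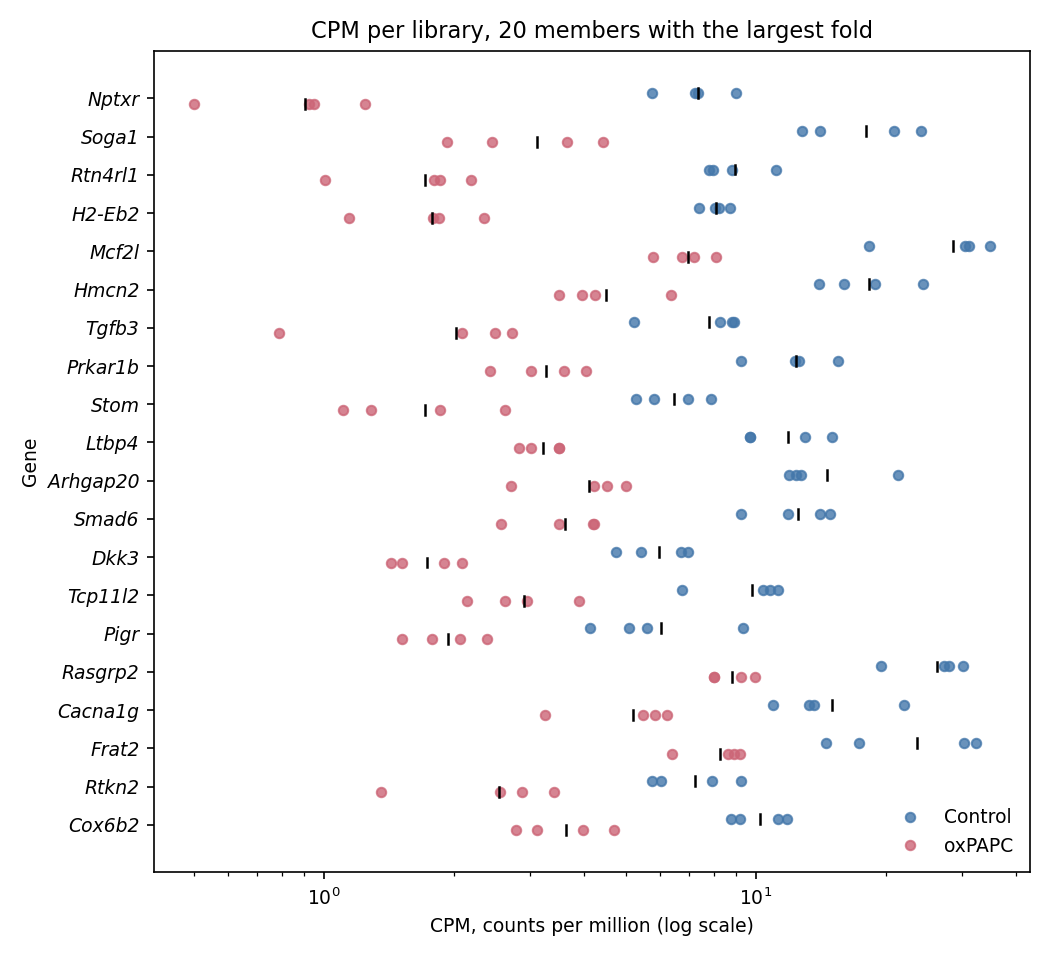
CPM in each library (horizontal axis, log scale) for the 20 members with the largest fold, from Nptxr at the top to Cox6b2 (vertical axis). Blue points are the 4 control libraries, red points the 4 oxPAPC libraries and black ticks the group means; by the rule that chose the genes no red point reaches a blue one, and the oxPAPC points of Tgfb3 run from 0.785 to 2.73 CPM.

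The 10 genes of the cell surface, channels and matrix had a median fold of 3.45, from 2.38 to 8.12. Nptxr, a membrane-bound pentraxin best known from synapses, stood at 5.75, 7.25, 7.34 and 9.02 CPM in the controls. With oxPAPC it stood at 0.499, 1.24, 0.924 and 0.948 CPM, 8.12-fold lower in the mean. The lowest control was 4.62 times the highest oxPAPC library. Its exons share 17.2% of their length with Npcd on the same strand, so the assignment of its reads is uncertain. Rtn4rl1, a receptor of the Nogo receptor family, had 7.94, 11.1, 7.81 and 8.83 CPM against 1.85, 1.80, 2.19 and 1.00 CPM (5.22-fold). H2-Eb2, a beta chain of MHC class II, had 8.71, 8.22, 8.07 and 7.401 against 1.14, 2.35, 1.85 and 1.78 CPM (4.55-fold). The controls of H2-Eb2 lay close together. Summed B cell and dendritic cell markers were higher with oxPAPC at low levels, and any link to H2-Eb2 was not tested.

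Hmcn2, a hemicentin of the extracellular matrix, had 18.8, 16.0, 24.4 and 14.015 CPM and 3.50, 6.36, 4.23 and 3.96 CPM (4.06-fold). Stom, the membrane scaffold protein stomatin, had 5.81, 7.86, 5.28 and 6.98 against 1.85, 1.11, 2.63 and 1.28 CPM (3.77-fold). Pigr, the receptor that carries polymeric immunoglobulin across epithelia, differed 3.12-fold and Cacna1g, a T-type calcium channel, 2.88-fold. For both, a single control library was the high point, replicate 3 at 9.36 CPM for Pigr and replicate 4 at 22.1 CPM for Cacna1g. Nod1, an intracellular sensor of bacterial peptidoglycan, had controls at 5.10 to 7.82 CPM and oxPAPC libraries at 2.00 to 3.18 CPM. Ramp1, which pairs with the calcitonin receptor-like receptor to bind the neuropeptide CGRP, was the most abundant of the 10 per kilobase of exon, at 10.2 CPM per kb in the controls and 4.19 with oxPAPC. Its CPM were 30.0, 26.5, 38.9 and 28.0 against 12.2, 12.9, 9.73 and 15.8. Rftn2, a raft-linked protein, completed the set at 2.38-fold.

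Components of the TGF-beta, Wnt and Notch pathways had a median fold of 3.44 over 7 genes. Tgfb3, a TGF-beta ligand, had 5.22, 8.28, 8.90 and 8.83 CPM in the controls and 0.785, 2.49, 2.09 and 2.73 CPM with oxPAPC, 3.86-fold lower in the mean. Replicate 1 was low in both groups. Ltbp4, a binding protein of latent TGF-beta in the matrix, had 9.72, 13.04, 9.72 and 15.0 against 3.50, 2.83, 3.50 and 3.01 CPM (3.70-fold). Smad6, an inhibitory Smad that acts mainly on BMP signals, had 11.9, 14.9, 9.26 and 14.1 against 4.21, 4.21, 3.50 and 2.57 CPM (3.45-fold).

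Of 31 other genes of the TGF-beta list, 4 fell and 5 rose, with a median log2 change of -0.09, and none fell with library-size scaling in edgeR (2 at an unadjusted p under 0.05, and 3 by DESeq2). The shares over all genes tested were 6.52% lower and 6.75% higher, and 2.79% and 7.02% with library-size scaling. The receptors Tgfbr2 (-0.56 ± 0.15, adjusted p = 0.022) and Tgfbr3 (-0.54 ± 0.14, adjusted p = 0.021) and the signal transducer Smad3 (-0.45 ± 0.14, adjusted p = 0.042) fell by edgeR. Those 3 calls were lost with library-size scaling (adjusted p = 0.18, 0.20 and 0.35) and without several single libraries (adjusted p up to 0.082, 0.077 and 0.14). Itgb8, an integrin chain that releases TGF-beta from its latent form, rose (1.55 ± 0.26, adjusted p = 0.0014), as did Acvr1 (0.76 ± 0.18, adjusted p = 0.011) and the target gene Id2 (0.70 ± 0.17, adjusted p = 0.014, and 0.053 without oxPAPC replicate 4). Tgfb1, the predominant TGF-beta of T cells, had a log2 change of -0.07 ± 0.21 (edgeR adjusted p = 0.88), at 369 ± 70.4 and 394 ± 113 CPM (SD, n = 4 each). The inhibitory Smad7 had -0.43 ± 0.22 (edgeR adjusted p = 0.23).

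The Wnt pathway was represented by Wnt10b, a ligand, Dkk3, a secreted Dickkopf protein, and Frat2, which binds the kinase GSK3. Wnt10b had 18.5, 21.7, 20.1 and 28.9 CPM without and 8.85, 9.40, 10.9 and 7.97 CPM with oxPAPC (2.40-fold). Dkk3 had 4.74, 5.42, 6.72 and 6.98 against 1.43, 1.52, 2.09 and 1.90 CPM (3.44-fold). Frat2 had controls of 17.3, 30.3, 14.6 and 32.3 CPM, which fell into a high and a low pair, and oxPAPC libraries of 6.41 to 9.19 CPM. Maml3, a coactivator of Notch, had 8.001, 9.02, 15.1 and 9.90 against 2.64, 4.42, 4.82 and 4.18 CPM (2.61-fold). Of 32 other genes of the Notch list 4 fell, all of them among the names that the choice of members left out (Notch3, Jag2, Heyl and Nrarp), and none rose by edgeR (3 higher at an unadjusted p under 0.05, and 1 by DESeq2). With library-size scaling in edgeR 3 fell and 1 rose, and Nrarp lost its call (adjusted p = 0.057, and 0.050 without control replicate 4). Among all genes tested 6.52% fell and 6.75% rose, or 2.79% and 7.02% with library-size scaling. Notch1 and Rbpj, the DNA-binding partner of Notch, had log2 changes of 0.19 ± 0.18 and 0.29 ± 0.15 (edgeR adjusted p = 0.56 and 0.25).

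**Figure D3:**
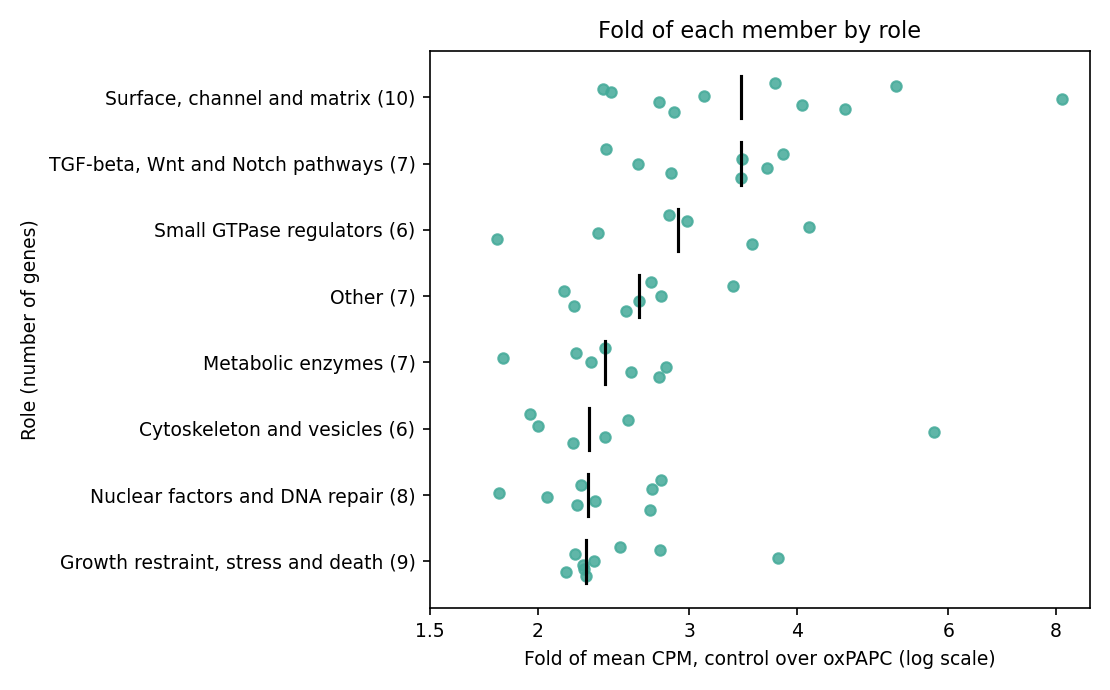
Fold of mean CPM, control over oxPAPC (horizontal axis, log scale), for each of the 60 members, arranged by role with the number of genes in brackets (vertical axis). Each point is a gene and each black bar the median of its role; medians ran from 2.28 for growth restraint, stress and death to 3.45 for surface, channel and matrix genes.

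The 9 genes of growth restraint, stress and death had a median control level of 38.2 CPM, not corrected for length, and a median fold of 2.28. Klhl24, an adaptor of a cullin ubiquitin ligase, had 79.1, 82.7, 109 and 77.0 CPM in the controls and 38.6, 43.2, 38.2 and 33.5 CPM with oxPAPC (2.26-fold). Mxd4, a partner of MAX that opposes Myc, had 65.9, 87.2, 74.8 and 74.6 against 32.9, 37.3, 35.2 and 28.7 CPM (2.26-fold). Tsc22d3, the glucocorticoid-induced leucine zipper protein GILZ, had 64.4, 80.8, 67.1 and 71.9 against 28.3, 27.4, 30.4 and 27.7 CPM (2.50-fold). The oxPAPC libraries of Tsc22d3 were tight, with an SD of 1.35 CPM about a mean of 28.5. Pik3ip1, a membrane protein that restrains PI3K, had 48.6, 52.9, 65.2 and 56.8 against 18.3, 26.5, 26.03 and 25.3 CPM (2.33-fold).

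Trib2 and Trib3 are tribbles pseudokinases, of which Trib3 is a target of the stress factor ATF4. Trib2 had 38.6, 41.4, 36.1 and 36.7 CPM against 16.6, 20.7, 17.2 and 14.6 CPM (2.21-fold). Trib3 had 8.48, 9.38, 8.22 and 9.90 against 2.35, 2.56, 5.25 and 2.79 CPM (2.78-fold), and oxPAPC replicate 3 was the high library. Crebrf, a regulator of CREB3 with a role in nutrient stress, had 28.6, 29.7, 49.9 and 29.6 against 13.5, 17.1, 14.9 and 18.3 CPM (2.16-fold). Bmf, a BH3-only protein that promotes cell death, differed 2.28-fold. Prkar1b, a regulatory subunit of protein kinase A, had 9.25, 12.6, 12.3 and 15.5 against 2.43, 3.59, 4.04 and 3.01 CPM (3.80-fold), the largest fold of this role.

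Related lists outside the 60 genes held more lower than higher genes. Over all genes tested 6.52% were lower and 6.75% higher, or 2.79% and 7.02% with library-size scaling. Of 29 other genes of quiescence and PI3K restraint, 11 fell and 1 rose by edgeR, with a median log2 change of -0.38, and 4 fell with library-size scaling. The smallest adjusted p-values among those that fell were those of Ypel3 (-1.04 ± 0.14, adjusted p = 0.00042) and of the retinoblastoma gene Rb1 (-0.91 ± 0.13, adjusted p = 0.00055). The cell cycle inhibitor Cdkn1b fell (-0.73 ± 0.13, adjusted p = 0.0029, and 0.057 with library-size scaling). Slfn2, a Schlafen gene needed for T cell quiescence, rose (1.92 ± 0.15, adjusted p = 4.39e-06). Foxo1 had -0.18 ± 0.16 (edgeR adjusted p = 0.51). Among 24 further markers of naive, recirculating cells 7 fell and 1 rose, with a median of -0.31, and 3 fell with library-size scaling. Klf2 (-0.86 ± 0.22, adjusted p = 0.017) and its target S1pr1 (-0.56 ± 0.15, adjusted p = 0.022), which let T cells leave lymphoid organs, fell by edgeR, while the homing receptor Ccr7 had -0.25 ± 0.17 (adjusted p = 0.38). The call of Klf2 was lost without control replicate 2 or oxPAPC replicate 1 or 4 (adjusted p = 0.058, 0.053 and 0.055), and that of S1pr1 without oxPAPC replicate 1 or 2 (0.070 and 0.062) and with library-size scaling (0.21). Of 31 other ATF4 targets 6 fell, of which Ddit3, Nupr1 and Chac1 are left-out names, and 2 rose (4 and 2 with library-size scaling).

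**Figure D4:**
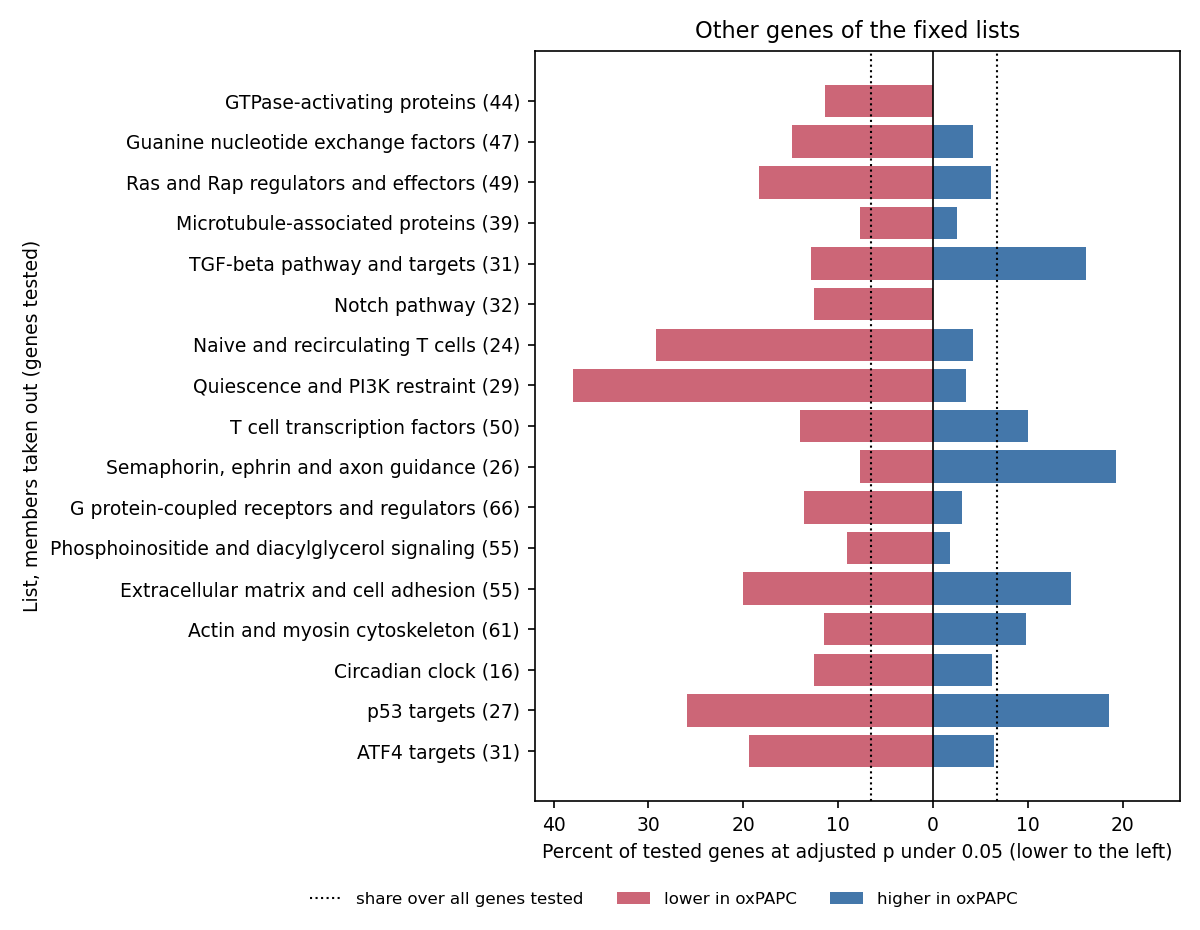
Percent of tested genes that were lower (red, to the left) or higher (blue, to the right) at an edgeR adjusted p under 0.05, for 17 gene lists with the members taken out and the number tested in brackets (vertical axis). Dotted lines mark the shares over all genes tested, 6.52% and 6.75%; the quiescence list has the longest red bar with 11 of 29 genes, and the semaphorin list the longest blue bar with 5 of 26.

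Over the 17 lists together, 671 other genes were tested, with a median log2 change of -0.16. Of these, 104 (15.5%) fell and 47 (7.0%) rose, beside 6.52% and 6.75% of all genes. The lists were chosen with earlier results of these data known, so these shares are a description. The genes that fell include the left-out names Notch3, Jag2, Ddit3, Nupr1 and Chac1, which met the thresholds of the rule. With a mean of at least 5 CPM required, 103 of 532 list genes (19.4%) and 8.97% of all genes were lower. With library-size scaling 52 list genes (7.75%) fell, while over all genes that scaling called 458 (2.79%) lower and 1154 (7.02%) higher in place of 1072 and 1110. Relatives of the 60 genes by name were sought through 13 name stems such as Arhgap, Arhgef and Tubb. Of 140 relatives tested 11 (7.86%) fell and 5 (3.57%) rose, beside 6.52% and 6.75% of all genes, and the median was -0.11. Among the tubulins Tubb4a fell while Tubb4b and Tubb6 rose, and Smad3 was the only other tested Smad gene to pass. No relative of Wnt10b, Vamp1, Cox6b2, Rdh12 or Tsc22d3 passed edgeR's test, of 41 tested (3 lower and 4 higher at an unadjusted p under 0.05, and 1 lower by DESeq2), while library-size scaling in edgeR called 1 of them higher.

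Nuclear factors and DNA repair genes numbered 8, with a median fold of 2.29. Dbp, a transcription factor driven by the circadian clock, had 35.9, 56.8, 43.5 and 58.7 CPM in the controls and 15.2, 19.8, 21.8 and 15.3 CPM with oxPAPC (2.701-fold). Its exons share 18.0% of their length with Sphk2 on the other strand, which averaged 33.0 CPM, and the sources used here do not say if strand was used in counting. Of 16 other clock genes Per1 (-0.83 ± 0.17, adjusted p = 0.0054) and Per3 (-1.06 ± 0.18, adjusted p = 0.0015) fell by edgeR and Npas2 rose (0.47 ± 0.13, adjusted p = 0.031). By the same test 6.52% of all genes were lower and 6.75% higher. The call of Npas2 did not hold when control replicate 2, 3 or 4, or oxPAPC replicate 1, 2 or 4, was left out (adjusted p 0.057 to 0.10). Pold4, the small subunit of DNA polymerase delta, had 45.3, 46.5, 54.2 and 47.7 against 21.9, 17.8, 28.3 and 26.5 CPM (2.05-fold). Per kilobase it was the most abundant of the 60, at 41.6 CPM per kb in the controls and 20.3 with oxPAPC. Rdm1, an RNA-binding protein linked to DNA repair, had 61.0, 64.9, 56.4 and 54.7 against 31.4, 35.0, 36.1 and 28.8 CPM (1.81-fold).

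The DNA glycosylase Neil2 differed 2.22-fold, and the homeodomain factor Pbx4 2.33-fold, with oxPAPC libraries of Pbx4 between 3.74 and 4.07 CPM. The zinc finger genes Zfp516, Zfr2 and Zc3h6 differed 2.24-fold, 2.78-fold and 2.72-fold. Zc3h6 had 14.8, 11.9, 28.5 and 14.6 CPM in the controls, with replicate 3 far above the others, and 4.85, 7.81, 5.94 and 7.08 CPM with oxPAPC.

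Metabolic enzymes numbered 7, with a median fold of 2.40. Adssl1, a synthase of the purine nucleotide cycle, had 24.7, 30.1, 23.7 and 36.3 against 7.13, 9.95, 14.7 and 9.70 CPM (2.77-fold). Cox6b2, the testis form of a cytochrome oxidase subunit, had 9.19, 8.77, 11.3 and 11.8 against 2.78, 3.11, 3.99 and 4.68 CPM (2.82-fold). The rule that chose the genes sets their groups apart, and oxPAPC replicate 3 was the high library for Adssl1. The sulfide oxidizing enzyme Sqor, the retinol dehydrogenase Rdh12, the carnosine synthase Carns1 and Ddah2, which breaks down methylated arginines, differed 2.39-fold, 2.22-fold, 2.57-fold and 2.31-fold. Khk, the fructose kinase, had 15.2, 15.8, 15.1 and 18.2 against 8.42, 9.88, 9.63 and 7.36 CPM (1.82-fold).

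The remaining 7 genes had a median fold of 2.63. Tcp11l2 led them at 3.38-fold, with 6.76, 10.4, 11.3 and 10.8 CPM against 2.14, 2.63, 3.89 and 2.96 CPM. Mturn, a gene of neural progenitor differentiation, had 18.8, 17.6, 23.9 and 17.9 against 4.35, 7.39, 6.91 and 9.42 CPM (2.79-fold). Tmem71, Lonrf3, Apold1, Fam102b and Rcn3 lay between 2.15-fold and 2.71-fold.

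At the threshold, the genes just inside were Zc3h6, Khk and Rdm1, whose lowest control values were 1.53, 1.53 and 1.52 times the highest oxPAPC values. Just outside lay Tcf7l2, a partner of beta-catenin in Wnt signaling, at 1.497, Mfrp at 1.49 and Plekha7, a protein of cell junctions, at 1.48. Tcf7l2 had 5.99, 4.45, 6.10 and 5.46 CPM in the controls and 2.35, 2.97, 1.90 and 2.23 CPM with oxPAPC.

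The 60 genes were spread over 20 chromosomes. Within 1 Mb of each other lay 5 pairs: H2-Eb2 with Ddah2, Carns1 with Pold4, Psrc1 with Fam102b, Mturn with Nod1, and Rcn3 with Dbp. The closest were Carns1 and Pold4, 56419 bp apart on chromosome 19 with 4 coding genes of the table between them. The exons of 18 members overlap another annotated gene, and for 6 of them by at least 10% of exon length: Dbp, Nptxr, Carns1 (40.3%, Gm17552 on the other strand), Dzip1 (28.4%), Pold4 (24.6%) and Rcn3 (16.9%). Reads of such partners cannot be told apart here, so these values are uncertain. The median gene span of the 60 was 27990 bp beside 24075 bp over the 10175 coding genes with a gene model, and the median longest transcript 3546 beside 3461 bases. The median GC content of the longest transcript was 52.4% beside 49.7%.

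GC content also went with which control library was high. The 26 members highest in control replicate 3 had a median GC of 48.9%, the 11 highest in replicate 2 had 56.9%, and the 22 highest in replicate 4 had 55.8%. Across the 60 genes the log2 ratio of control replicate 2 to replicate 3 had a Spearman correlation with GC of 0.56, and across 10175 genes 0.59. For the ratio of the oxPAPC to the control mean it was -0.17 across the 60 and 0.06 across the 10175. These are correlations across genes that share libraries, given as a description. The oxPAPC and control values also chose the 60, so their -0.17 is not compared with the 0.06.

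**Figure D5:**
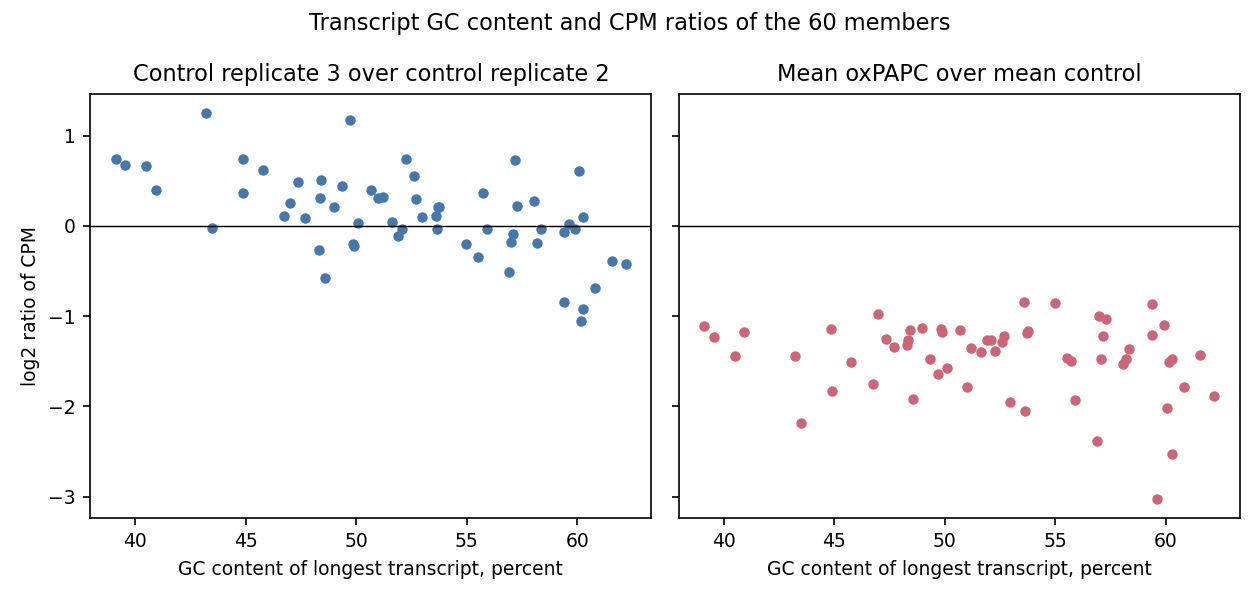
log2 ratio of CPM (vertical axis) against the GC content of the longest transcript in percent (horizontal axis) for the 60 members, each point a gene. Left, control replicate 3 over control replicate 2, where the ratio is lower at higher GC on the whole. Genes lie there on both sides of 0 over most of the range. Right, mean oxPAPC over mean control, where the rule that chose the genes places all of them below 0.

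Promoter sequences, from 250 bases before to 50 bases after the start, were matched for 44 of the 60 genes and for 8235 of the coding genes of at least 3 CPM. In the 250 bases before the start, the E-box CACGTG, which reads the same on both strands and is bound by dimers of MAX with its partners among other factors, was present in 8 of 44 (18.2%, exact 95% interval 8.19% to 32.7%) and in 8.77% of the 8235. With the 50 bases after the start included, the E-box shares were 18.2% and 10.6%. Before the start, the GC box GGGCGG on either strand was present in 65.9% and 62.2%, the CRE TGACGTCA in 4.55% and 2.94%, the SMAD motif GTCTGNC in 11.4% and 12.6%, and the ETS motif CCGGAAGT in 2.27% and 6.91%. The ISRE motif was found in 6.82% and 2.66%, ATF4-C/EBP in 4.55% and 1.92%, and YY1 in 4.55% and 2.14%. AP-1 was found in 4.55% and 3.61%, and FOXO in 2.27% and 2.04%. RBPJ was found in 2.27% and 5.08%, and TCF/LEF in 2.27% and 5.34%. KLF, NRF1 and NF-kB were found in no member and in 3.4%, 1.87% and 0.39%. The interval covers counting error only, 15 motifs were searched, and a match is a description of letters, not of binding. A CpG ratio, observed over expected, of at least 0.6 was found in 65.9% of the members' promoters and 78.0% of the 8235. The regions of Crebrf, with 2 E-boxes, and of Mxd4, which encodes a MAX partner, are shown with the E-box in capitals, and that of Mturn with its 2 CREs in capitals. They lie at chr17:26715501-26715649, plus strand, at chr5:34187894-34187953, minus strand, and at chr6:54681534-54681623, plus strand, all in GRCm38.p6.
Crebrf: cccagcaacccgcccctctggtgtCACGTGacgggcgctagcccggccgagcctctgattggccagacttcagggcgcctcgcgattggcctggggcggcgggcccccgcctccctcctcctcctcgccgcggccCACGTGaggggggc
Mxd4: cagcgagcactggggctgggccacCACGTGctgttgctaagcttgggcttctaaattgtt
Mturn: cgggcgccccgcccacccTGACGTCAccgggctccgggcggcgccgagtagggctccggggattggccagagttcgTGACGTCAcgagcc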

How the data were processed

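RNA of 8 libraries (4 Control, 4 oxPAPC) was analysed. Reads were aligned with STAR 2.7.8a, counted with featureCounts 2.0.2 on GRCm38.p6 and compared with DESeq2 1.30.1, per the submitters' processing notes. The authors deposited raw counts per gene. The same table, per the file headers, holds the authors' normalized mean signal, log2 fold changes with standard errors, the Wald statistic as a score, and p-values. Of these, log2 fold changes and the presence of adjusted p-values are quoted. The table lists no gene under 5 counts in its second-highest library.

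From the counts, CPM was computed over each column's sum, which chose and describes the members. edgeR 4.0.16 in R 4.3.3 (TMM scaling, filterByExpr, quasi-likelihood test, Benjamini-Hochberg adjustment, threshold 0.05) was fitted on all 8 libraries, and its code was tested on simulated data. A standard error is the log2 change over the square root of F. Replicates were checked for duplicates and differed by more than sampling noise. Gene models came from GENCODE M21 (99.07% of gene IDs with identical coordinates), promoters from the RefSeq table of GRCm38.p6. CPM per kb uses the union of exons. Name stems had at least 3 letters and 5 to 60 tested genes.

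The members, the 17 lists and the 12 marker lists were chosen with earlier results of these data known, and roles after the members were seen. Named by rule were Arhgap20, Soga1, the 14 members with the largest fold, the 14 with the highest control mean, 3 genes on each side of the threshold, and per list the 3 non-members with the smallest adjusted p. Values of 1 member and of some list genes are not reported here, though counts include them. All other genes named were chosen after their values were seen. Alternatives were other scalings, filters and thresholds, DESeq2 1.42.0, a replicate block and leaving out each library.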

Additional observations from a re-analysis of the deposited data

Results flagged for a closer look

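Among 120 groups of 4 values (each of the 60 genes in each treatment), 10 held a library far from the other 3, and 9 of them are reported. The usual chance share of such groups does not apply, because these values entered the choice of genes and the genes share libraries. Control replicate 3 was high for 4 of these: Arhgap20 at 21.3 CPM (others 11.9 to 12.7), Crebrf at 49.9 (28.6 to 29.7), Pbx4 at 12.6 (7.55 to 8.37) and Tmem71 at 19.96 (11.2 to 12.6). Control replicate 1 was low for Lonrf3 at 6.93 CPM (others 10.4 to 10.8) and for Tgfb3 at 5.22 (8.28 to 8.90). With oxPAPC, Carns1 was high in replicate 2 at 4.63 CPM (others 3.26 to 3.42), Trib3 high in replicate 3 at 5.25 (2.35 to 2.79), and Pik3ip1 low in replicate 1 at 18.3 (25.3 to 26.5). Without control replicate 3 the log2 ratio of Pbx4 went from -1.22 to -1.02 and that of Tmem71 from -1.44 to -1.22.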

How the results depend on the processing

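The log2 ratios of the 60 genes ran from -3.22 to -0.79 over 660 values under the alternatives; the rule that chose the genes keeps them below 0 whenever a library is left out, so their sign is no measure of stability. The number of genes meeting the rule moved with its settings: 98 with CPM over TMM library sizes (55 of the 60 among them), 134 at a looser ratio than 1.5, 13 at a ratio of 2, 103 at a mean of 1 CPM, and 60 to 99 when a library was left out, the 99 without control replicate 1. It was 86 with CPM over DESeq2 size factors (52 of the 60 among them) and 78 with Gm26917 left out of the column sums (56 of the 60). The count of all lower genes was 458 with library-size scaling and 680 to 1144 when a library was left out (680 without control replicate 2, 694 without oxPAPC replicate 4), and that of higher genes 710 to 1057 (710 without control replicate 2). Lower genes among the lists numbered 52 with library-size scaling and 70 to 122 with a library left out; higher ones 31 when genes needed a mean of 5 CPM and 31 to 43. Relatives that fell numbered 3 with library-size scaling and 7 to 13 with a library left out, and those that rose 0 to 5. The cause of these moves was not tested. Of 151 list genes that passed, 76 lost their call under at least 1 alternative and none reversed. Genes near 3 CPM rest on few counts, which limits their folds.

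Same-numbered libraries had correlations of 0.32, -0.05, -0.37 and -0.04 of their deviations from group means. Control and oxPAPC libraries of different numbers were not compared in this way, so these values cannot decide whether the numbers pair the libraries. With a replicate block 708 genes were lower and 745 higher, 80 list genes lower and 33 higher, and 7 relatives lower and 2 higher.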

Other observations

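Of the 17 lists, 6 held no member, and their genes moved in both directions (edgeR, adjusted over all genes). The share of all genes tested was 6.52% lower and 6.75% higher, or 2.79% and 7.02% with library-size scaling. Of 55 extracellular matrix and adhesion genes 11 fell and 8 rose (9 and 7 with library-size scaling): the proteoglycan Bgn fell (log2 change -2.95 ± 0.36 SE, adjusted p = 0.00019), and the protease inhibitor Timp1 (2.00 ± 0.23, adjusted p = 0.00012) and the matrix protein Tnc (1.83 ± 0.27, adjusted p = 0.00066) rose. Of 50 T cell transcription factors 7 fell (4 with library-size scaling), among them Nfia (-1.15 ± 0.21, adjusted p = 0.0031), and 5 rose, among them Tbx21, which directs the Th1 fate (2.31 ± 0.21, adjusted p = 1.98e-05), and Mef2c, which B cells and myeloid cells also express (3.12 ± 0.38, adjusted p = 0.00018). Of 26 semaphorin, ephrin and axon guidance genes 2 fell and 5 rose (1 and 4), led by the plexin Plxnc1 (1.22 ± 0.15, adjusted p = 0.00019). Of 66 G protein-coupled receptors and regulators 9 fell and 2 rose (3 and 2 with library-size scaling), and of 55 phosphoinositide and diacylglycerol genes 5 fell and 1 rose (1 and 0). Of 27 p53 targets 7 fell and 5 rose (3 and 4 with library-size scaling). Those that fell were led by the epoxide hydrolase Ephx1 (-1.40 ± 0.18, adjusted p = 0.00033), which is among the names that the choice of members left out. Those that rose were led by Tigar (1.02 ± 0.20, adjusted p = 0.0043).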
